A study of Mus musculus with 6 samples.

Results

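Polycomb repressive complex genes were read in haematopoietic stem cells of mice with an inducible ETV6-RUNX1 fusion, by RNA sequencing of 6 libraries. The 10 genes were taken from a named list: Ezh1, Ezh2, Eed, Suz12, Bmi1, Rnf2, Cbx2, Cbx7, Pcgf1 and Asxl1, of 55471 gene IDs in the deposited table. Ezh2 was the member that fell when the fusion was induced, from 48.5 ± 10.1 to 16.7 ± 3.98 TPM (SD, n = 3 libraries in each group), while its paralog Ezh1 stood at 14.7 ± 5.31 and 16.7 ± 2.42 TPM. Ezh2 therefore went from 77.1% to 49.7% of the summed Ezh1 and Ezh2 signal. Cbx7, a chromobox reader, averaged 2.57 times its uninduced TPM in the induced group, and its call depended on how the libraries were scaled. The other 7 members did not pass the test on either scale described below.

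All 6 libraries came from mice labelled with the ETV6-RUNX1 genotype, so the uninduced controls carried the construct too. The 3 induced libraries came from mice given doxycycline in their food for 2 weeks, and the 3 uninduced libraries from mice without it. Sorting took cells that lack lineage markers and CD48 and carry Kit, Sca1 and CD150, a gate for long-term stem cells. Fusion induction and doxycycline itself cannot be told apart, since mice given doxycycline without the fusion were not analysed here. The promoter that drives the transgene, the animals' age and any pooling of animals are not given in the sources used here. Nothing in the labels says whether the libraries of a group are from separate animals, so p-values measure the spread between these libraries, which may be technical. ETV6-RUNX1 is the fusion protein made by a translocation of childhood B-cell precursor leukaemia.

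Polycomb proteins keep genes silent through a pair of chromatin-modifying complexes. Polycomb repressive complex 2 (PRC2) puts methyl groups on lysine 27 of histone H3 through EZH2 or EZH1, held in a core with EED and SUZ12. Polycomb repressive complex 1 (PRC1) attaches ubiquitin to histone H2A through RING1 or RNF2, paired with a PCGF protein, and its canonical form binds methylated histone H3 through a CBX protein. In blood, EZH2 is known as the form of dividing cells and EZH1 as the form that persists in resting ones, and BMI1 is known for its need in stem cell self-renewal.

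TPM, the unit of all levels here, is a length-corrected share of each library, so levels can be compared between genes, but the depth of each library is unknown. Genes averaging 1 TPM or more, 13470 in all, were tested with limma on log2(TPM + 1), with p-values adjusted over all of them by the Benjamini-Hochberg method and a threshold of 0.05. Changes on this scale understate those of low genes. Nuclear protein-coding genes made up 26.6% to 32.9% of the TPM in the uninduced libraries and 20.5% to 23.2% in the induced ones, and the median change of all tested genes was -0.35 on the log2 scale. Each change was therefore also computed after median-of-ratios scaling, which gives each library 1 factor so that the typical gene is level between libraries, and brought that median to 0.0033. All 10 members passed the filter, and each had a single row in the table.

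Among the members 1 of 10 was called lower and 0 higher on the deposited scale, where 11.5% of all tested genes were called (10.2% lower and 1.29% higher). After median-of-ratios scaling 1 member was called lower (Ezh2) and 1 higher (Cbx7), where 5.98% of tested genes were called, 3.1% of them lower and 2.88% higher as shares of all tested. The groups did not overlap for 2 of 10 members, Ezh2 and Cbx7, on both scales, where 33.1% of tested genes did not overlap on the deposited scale (28.2% lower and 4.83% higher) and 27.9% did not after scaling (14.3% lower and 13.6% higher). The median change of the members was -0.19 on the deposited scale, beside -0.35 for all genes, and 0.18 after scaling. Without adjustment, 2 members (Ezh2 and Cbx7) had limma p under 0.05 on either scale, beside 27.9% of all tested genes on the deposited scale and 21.8% after scaling. The share of members called on the deposited scale was near that of all genes, and the differences described below lie in single genes.

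**Figure D1:**
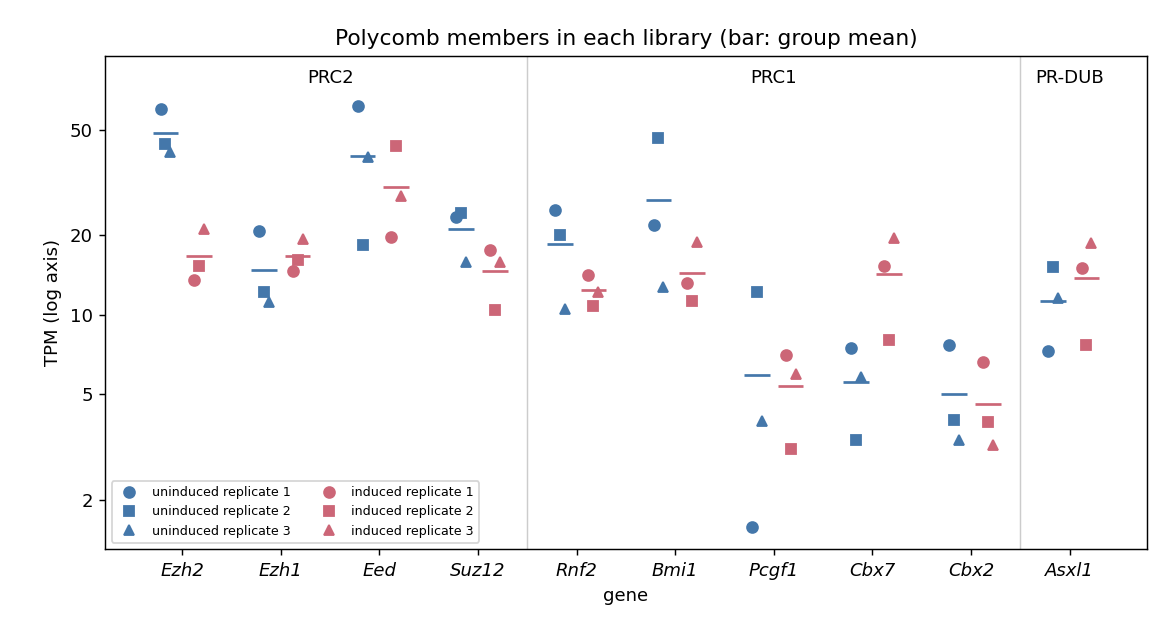
TPM of each of the 10 Polycomb members in each library, on a log-scaled axis. Blue points are uninduced and red points induced libraries, symbols give the replicate, bars are group means, and the panels split PRC2, PRC1 and the Polycomb deubiquitinase (PR-DUB). The 3 induced points lie below the 3 uninduced points for Ezh2 and above them for Cbx7, and the groups overlap for the other 8 members.

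Ezh2 (ENSMUSG00000029687, GRCm38 chromosome 6, 47530139 to 47595341, minus strand) encodes the main histone H3 lysine 27 methyltransferase. Its level was 60.01, 44.31 and 41.21 TPM in uninduced libraries 1 to 3, and 13.58, 15.29 and 21.17 TPM in induced libraries 1 to 3. The lowest uninduced library was nearly double the highest induced one. The change was -1.49 on the log2(TPM + 1) scale (SE 0.24, 95% interval -2.03 to -0.95, adjusted p = 0.00576), a 2.91-fold lower mean TPM. After median-of-ratios scaling the change was -1.10 (95% interval -1.59 to -0.61, adjusted p = 0.0224). Of the 13470 tested genes, 526 (3.9%) fell at least as far on the deposited scale. On that scale Ezh2 passed with each library left out in turn, with adjusted p from 0.0155 to 0.0344. With median-of-ratios scaling and a library left out, adjusted p ran from 0.0475 to 0.0789, and Ezh2 passed without uninduced library 2 or induced library 3 but missed the threshold when any of the other 4 was left out.

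Ezh1 (ENSMUSG00000006920, chromosome 11, 101191115 to 101226463, minus strand) encodes the other methyltransferase of PRC2. Its level was 20.82, 12.16 and 11.18 TPM in the uninduced libraries and 14.66, 16.04 and 19.37 TPM in the induced ones. On the deposited scale all induced libraries lay inside the uninduced range, and after scaling induced libraries 2 and 3 lay above it. The change was 0.21 (SE 0.29, 95% interval -0.42 to 0.85, adjusted p = 0.668) on the deposited scale and 0.60 (95% interval -0.0008 to 1.19, adjusted p = 0.230) after scaling. With a library left out it ran from 0.05 to 0.47, and from 0.44 to 0.84 with scaling as well.

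Set against each other, the paralogs went from unequal to level. The log2 ratio of Ezh1 to Ezh2, each as TPM + 1, was -1.48, -1.78 and -1.79 in the uninduced libraries and 0.10, 0.06 and -0.12 in the induced ones. The group means were -1.69 ± 0.18 and 0.015 ± 0.12, a difference of 1.70 with no overlap. An exact two-sided permutation test gave p = 0.1, the smallest that 3 libraries against 3 allow, and 0.1 after adjustment over the 2 ratios tested (this one and that of Cbx7 to Cbx2). With a library left out the difference stayed between 1.65 and 1.80. A ratio inside a library is nearly free of how libraries are scaled, and over the settings run it ranged from 1.47 to 1.80. As a share, computed after these values were seen, Ezh2 made up 74.2%, 78.5% and 78.7% of the summed Ezh1 and Ezh2 TPM in the uninduced libraries, and 48.1%, 48.8% and 52.2% in the induced ones. The sum itself was 63.2 ± 15.4 TPM in the uninduced group and 33.4 ± 6.39 TPM in the induced group. It did not overlap on the deposited scale, where 33.1% of single genes did not either. After scaling, where 27.9% did not, the groups were narrowly apart (lowest uninduced sum 45.2, highest induced 43.8).

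Proliferation markers moved with Ezh2. Of a list of 12 such markers, 11 were called lower on both scales. Of all tested genes, 10.2% were called lower on the deposited scale and 3.1% after scaling. Among the 11 were Mki67 (-2.67), Top2a (-2.78), Mcm5 (-2.71) and Pcna (-1.43, all log2 on the deposited scale). Cdk1 did not pass on either scale (limma adjusted p = 0.0535 and 0.134). The summed level of the 12 markers was 402 to 460 TPM in the uninduced libraries and 82.7 to 115 TPM in the induced ones. Their part in the Ezh2 result was not tested. In sorted bulk cells, fewer cells of a kind and less RNA in each cell cannot be told apart. Among 10561 other tested protein-coding genes, the profiles nearest to that of Ezh2 were those of Myh10, a non-muscle myosin heavy chain, Pcna, the sliding clamp of DNA replication, and Anapc15, a subunit of the anaphase-promoting complex. Their root mean square distances from Ezh2 over the 6 libraries, after centring each gene's log2(TPM + 1), were 0.0438, 0.0844 and 0.0935. The nearest profiles to Ezh1 were Pik3ca (0.0901), Nr1d2 (0.0930) and Grk3 (0.0931), none of which passed the test.

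The stretches of promoter before the starts of Ezh2, Ezh1 and Cbx7 are shown because these genes are the paralog pair and the other member that differed between the groups. They are the parts of RefSeq's GRCm38.p6 promoter windows (250 bases before the start to 50 after it) that lie outside annotated exons, printed 5′ to 3′ on the gene's strand, with matches to the CCAAT box in capitals.
Ezh2, chr6:47595059-47595183, minus strand: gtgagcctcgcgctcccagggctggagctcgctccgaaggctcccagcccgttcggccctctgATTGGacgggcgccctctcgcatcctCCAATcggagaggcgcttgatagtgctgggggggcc
Ezh1, chr11:101226464-101226713, minus strand: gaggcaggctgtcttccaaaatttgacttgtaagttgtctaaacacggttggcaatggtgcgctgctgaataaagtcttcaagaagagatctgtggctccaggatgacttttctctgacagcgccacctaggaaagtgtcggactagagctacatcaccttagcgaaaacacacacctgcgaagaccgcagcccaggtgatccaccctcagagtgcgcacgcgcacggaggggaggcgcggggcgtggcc
Cbx7, chr15:79932769-79932896, minus strand: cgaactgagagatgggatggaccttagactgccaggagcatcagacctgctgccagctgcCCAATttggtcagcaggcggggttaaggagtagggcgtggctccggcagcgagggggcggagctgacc
The RefSeq starts of Ezh2 and Cbx7 lie inside the spans that GENCODE gives these genes, and so do the stretches printed for them. Windows were found for 8 of the 10 members, not for Cbx2 and Pcgf1. Motifs of 3 kinds known from promoters of cell cycle genes were searched on both strands: E2F sites (TTTCCCGC, TTTGGCGC, TTTCGCGC or TTTGCCGC), the CCAAT box (CCAAT) and the cell cycle homology region (TTTGAA). Of 32851 windows in the RefSeq table, 2.3% held an E2F match, 37.4% a CCAAT match and 17.9% a TTTGAA match. The Ezh2 window held the E2F form TTTGGCGC, in the transcribed bases just after the start, and 3 CCAAT matches, of which the printed stretch shows 2. The Ezh1 window held none of the 3 motifs. The Cbx7 window held a CCAAT match, shown above, and a TTTGAA match nearer the start. Members whose test did not pass held matches too. Suz12 held an E2F match (TTTCCCGC), a CCAAT match and a TTTGAA match, Eed held 1 CCAAT and 2 TTTGAA matches, and Asxl1 held 1 TTTGAA match. Bmi1 and Rnf2 held none of the motifs. These matches describe letters in a window and no binding was measured.

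Eed and Suz12, the partners in the PRC2 core, did not pass the test. Eed (ENSMUSG00000030619) encodes the subunit that reads methylated histone H3 and stimulates the enzyme. It had 61.77, 18.29 and 39.50 TPM in the uninduced libraries and 19.68, 43.61 and 28.04 TPM in the induced ones, with wide overlap. Its change was -0.29 (95% interval -1.22 to 0.64, adjusted p = 0.690) on the deposited scale and 0.10 (adjusted p = 0.926) after scaling, so the sign turned with the scale. Suz12 (ENSMUSG00000017548) encodes the scaffold of the complex. It had 23.33, 24.19 and 15.84 TPM in the uninduced libraries and 17.58, 10.40 and 15.77 TPM in the induced ones. Uninduced library 3 lay within the induced range, and the change was -0.51 (SE 0.28, adjusted p = 0.265), or -0.13 (adjusted p = 0.810) after scaling.

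The wider Polycomb list held 49 other genes, of which 47 were in the table by these names and 45 passed the filter. Of those 45, 9 were called on the deposited scale, 1 higher and 8 lower, where 11.5% of all tested genes were called. None of the 9 had overlapping groups, and 14 of the 45 did not overlap in all, where 33.1% of tested genes did not. The median change of the 45 was -0.35, the same as that of all genes to 2 decimals. After median-of-ratios scaling 4 of the 45 were called, Phf1 and Ogt higher and Rbbp7 and Hcfc1 lower. On that scale 5.98% of all tested genes were called (2.88% higher and 3.1% lower). With a library left out on the deposited scale, the 9 calls dropped to Rbbp7 and Phf1 (uninduced library 1), Phf1 and Mbd6 (uninduced library 2), Rbbp7 and Pcgf2 (induced library 1), Rbbp7 (induced library 2), or Rbbp7 and Hcfc1 (induced library 3), and 7 were left without uninduced library 3. With scaling and a library left out, Phf1 passed in every case, Ogt passed without uninduced library 1 or 2 or induced library 2, and Rbbp7 and Hcfc1 passed in none.

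**Figure D2:**
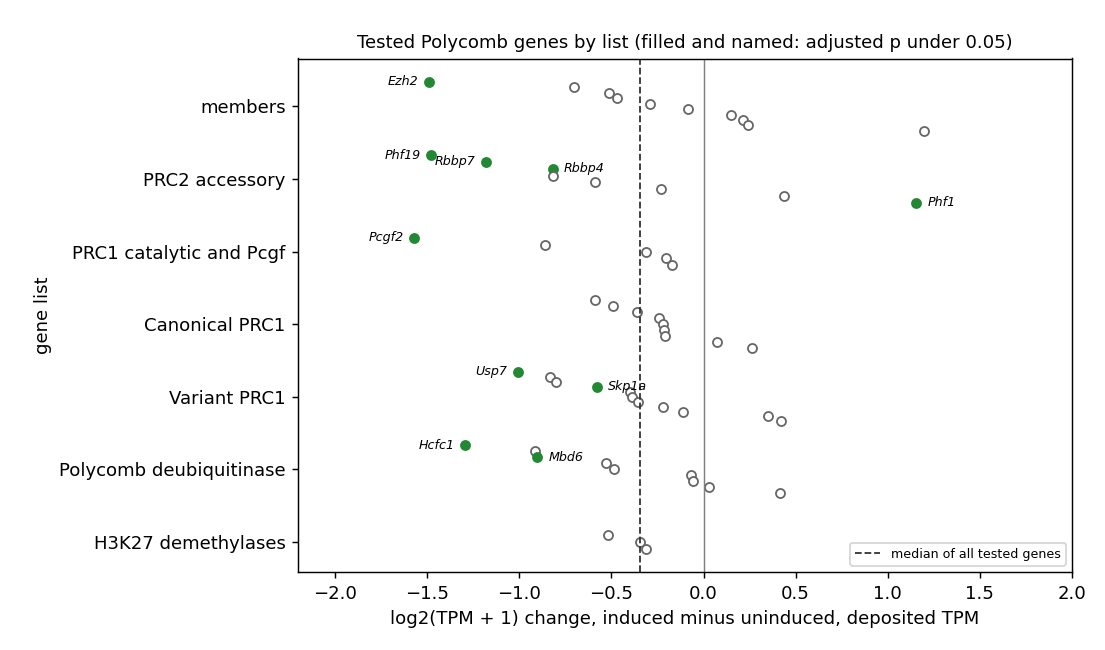
Change of every tested Polycomb gene on the log2(TPM + 1) scale, induced minus uninduced, with members and each wider list in its own row. Filled, named points passed the adjusted p threshold of 0.05, and the dashed line marks the median of all tested genes at -0.35. Ezh2 and 8 other genes are filled on the lower side, and Phf1 alone is filled on the higher side.

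PRC2 accessory genes gave 4 of the 9 calls, 1 higher and 3 lower of 8 tested, beside 1.29% and 10.2% of all tested genes, and 2 calls after scaling (Phf1 and Rbbp7), beside 5.98% of all genes called. Phf1, a Tudor-domain protein that recruits PRC2 to chromatin, had 11.59, 11.21 and 8.21 TPM in the uninduced libraries and 24.87, 21.93 and 25.42 TPM in the induced ones. It rose by 1.16 on the log2 scale (SE 0.24, adjusted p = 0.0156) and by 1.54 (adjusted p = 0.0044) after scaling. On the scaled values it passed with each library left out in turn (adjusted p 0.0183 to 0.0294), and on the deposited values it missed the threshold when any of the induced libraries was left out (highest adjusted p = 0.0628). Rbbp7, a histone chaperone shared by PRC2 and other complexes, fell from 158, 186 and 136 TPM to 51.7, 72.4 and 89.7 TPM (-1.18, adjusted p = 0.0102, and -0.77, adjusted p = 0.0485, after scaling). Its close relative Rbbp4 had 32.07, 33.18 and 33.43 TPM against 18.74, 16.62 and 19.35 TPM (-0.82, adjusted p = 0.0284), and was not called after scaling (adjusted p = 0.206).

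Phf19, another Tudor-domain recruiter, had 2.73, 3.98 and 4.26 TPM in the uninduced libraries and 0.937, 0.710 and 0.363 TPM in the induced ones. It fell by 1.48 on the log2 scale (SE 0.41, adjusted p = 0.0444), a call that was lost after scaling (-1.24, adjusted p = 0.109) and when any single library was left out. Phf1, Mtf2 and Phf19 are the 3 Polycomb-like genes, alternative partners of the PRC2 core. Their summed TPM was 42.9 ± 6.70 and 48.9 ± 3.35, which overlapped on the deposited scale but not after scaling (34.4 to 42.0 and 53.5 to 59.6). Within that sum the share of Phf1, taken after these values were seen, was 24.1% ± 1.79 in the uninduced and 49.2% ± 1.90 in the induced libraries. Mtf2 held 67.1% ± 3.52 and 49.4% ± 1.34, and Phf19 held 8.85% ± 3.16 and 1.37% ± 0.56. Each of these shares was apart between the groups. They sum to the whole and so are not separate observations, and 33.1% of single genes did not overlap either.

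**Figure D3:**
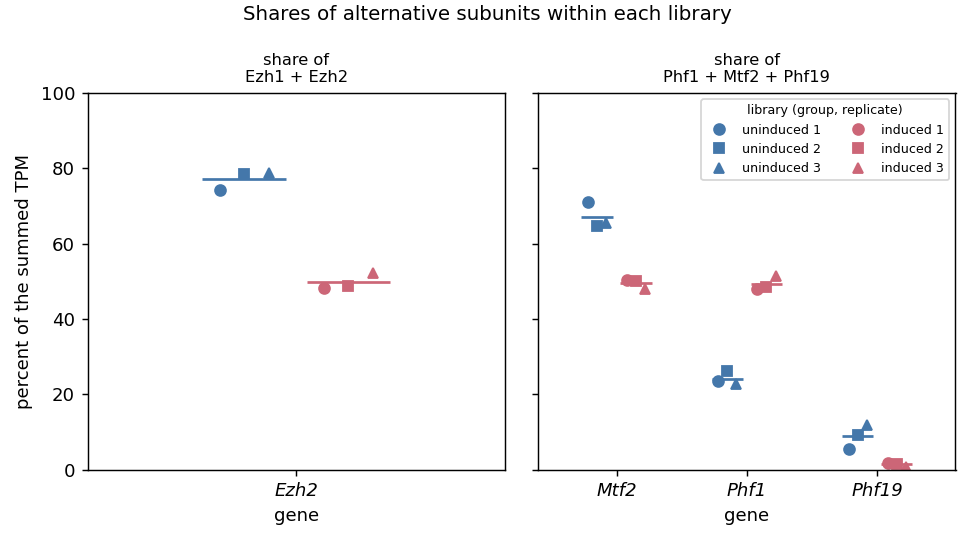
Share of the summed TPM within each library, in percent, of Ezh2 among Ezh1 and Ezh2 and of each of the 3 Polycomb-like genes among themselves. Each point is 1 library and each bar a group mean. Ezh2 holds 74.2% to 78.7% in uninduced and 48.1% to 52.2% in induced libraries, and Phf1 lies higher and Mtf2 and Phf19 lower in every induced library.

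In PRC1 none of the catalytic members passed. Rnf2 (ENSMUSG00000026484, also called Ring1b) encodes its main ubiquitin ligase and had 24.95, 20.01 and 10.54 TPM in the uninduced libraries and 14.15, 10.84 and 12.19 TPM in the induced ones. The induced libraries lay within the uninduced range, and the change was -0.47 (SE 0.32, 95% interval -1.19 to 0.25, adjusted p = 0.376). After scaling it was -0.09 (adjusted p = 0.899). Rnf2 made up 66.0% ± 17.4 of the summed Ring1 and Rnf2 TPM in the uninduced group and 63.5% ± 2.65 in the induced group.

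Bmi1 (ENSMUSG00000026739, also called Pcgf4) had 21.79, 46.76 and 12.71 TPM in the uninduced libraries and 13.15, 11.29 and 18.88 TPM in the induced ones. The uninduced mean of 27.1 ± 17.6 TPM rested largely on library 2, and the groups overlapped. The change was -0.70 (SE 0.41, adjusted p = 0.303), or -0.22 without uninduced library 2, and -0.32 (adjusted p = 0.679) after scaling. Pcgf1 (ENSMUSG00000069678), the PCGF protein of a variant PRC1 with KDM2B and BCOR, had the widest fold span of the members in the uninduced group, though not in the induced one. It had 1.57, 12.22 and 3.97 TPM in the uninduced libraries, a 7.78-fold span, and 7.03, 3.11 and 5.99 TPM in the induced ones. Its change was 0.15 with a wide 95% interval from -1.11 to 1.40 (adjusted p = 0.889), or 0.48 (adjusted p = 0.668) after scaling.

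Among the other ring and PCGF genes 1 of 5 tested was called on the deposited scale and 0 of 5 after scaling, beside 11.5% and 5.98% of all tested genes. Pcgf2, also called Mel18 and the closest paralog of Bmi1, had 11.75, 8.81 and 7.88 TPM in the uninduced libraries and 3.36, 1.85 and 2.41 TPM in the induced ones. It fell by 1.57 on the log2 scale (SE 0.33, adjusted p = 0.0174), and narrowly missed the threshold after scaling (-1.24, adjusted p = 0.0537). On the deposited scale it also missed without uninduced library 1 or 2 and without induced library 2 or 3. The summed TPM of the 6 PCGF genes was 73.9 ± 25.4 in the uninduced and 45.6 ± 2.04 in the induced libraries. The groups did not overlap on the deposited scale, where 33.1% of single genes did not either, and they overlapped after median-of-ratios scaling. Bmi1 held 34.2% ± 11.2 and 32.0% ± 10.3 of it, and Pcgf2 held 13.7% ± 4.17 and 5.59% ± 1.66.

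Cbx7 and Cbx2 encode alternative chromobox readers of canonical PRC1. Cbx7 (ENSMUSG00000053411, chromosome 15, 79915807 to 79971119, minus strand), known for its role in stem cell self-renewal, had 7.49, 3.35 and 5.80 TPM in the uninduced libraries. In the induced libraries it had 15.30, 8.0 and 19.54 TPM. The lowest induced library stood just above the highest uninduced one. The change was 1.19 (SE 0.39, 95% interval 0.33 to 2.06) with adjusted p = 0.0751 on the deposited scale, which missed the threshold, and 298 tested genes (2.21%) had a change at least as high. After median-of-ratios scaling it rose by 1.55 (SE 0.37, adjusted p = 0.0465). It was called as well under quantile normalization, where 6.04% of tested genes were called (2.78% higher and 3.27% lower). The same held when TPM was rescaled to nuclear protein-coding genes (1.57, adjusted p = 0.0296), where 8.95% were called (4.4% higher and 4.54% lower). With any 1 library left out it did not pass on either scale, with adjusted p from 0.0669 to 0.228 on deposited values and from 0.05997 to 0.164 after median-of-ratios scaling. Whether the counting used strand is not stated, and 6 members share exon bases with a gene on the opposite strand. The shared part is 2.61% of the exon length of Ezh2 (174 bases, with the noncoding gene Gm26625), 6.82% for Eed, 3.6% for Suz12, 3.83% for Rnf2 and 2.65% for Asxl1. For Cbx7 it is 100 bases (1.54%), shared with Apobec3. Apobec3 had 46.4, 52.1 and 61.9 TPM without induction and 87.4, 66.1 and 52.2 TPM with it, and these values overlap.

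Cbx2 (ENSMUSG00000025577) had 7.70, 4.0 and 3.36 TPM in the uninduced libraries and 6.66, 3.93 and 3.22 TPM in the induced ones, nearly the same values in both groups. Its change was -0.08 (SE 0.40, 95% interval -0.97 to 0.80, adjusted p = 0.913), and 0.25 (adjusted p = 0.763) after scaling. The log2 ratio of Cbx7 to Cbx2 was -0.04, -0.20 and 0.64 in the uninduced libraries and 1.09, 0.87 and 2.28 in the induced ones. The difference of the means was 1.28 without overlap, with exact permutation p = 0.1, again the smallest possible and 0.1 after adjustment over the 2 ratios. With a library left out the difference ran from 0.84 to 1.55. None of the other 9 canonical PRC1 genes tested was called by limma on either scale, beside 11.5% and 5.98% of all genes. On both scales 0 had an unadjusted p under 0.05, beside 27.9% and 21.8% of all genes.

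Variant PRC1 genes gave 2 calls among 11 tested, both lower, the direction of most calls in the whole table (10.2% lower and 1.29% higher). Usp7, a deubiquitinase that associates with PRC1, fell from 82.5 ± 19.8 to 39.8 ± 2.40 TPM (-1.01, adjusted p = 0.0160). Skp1a, an adaptor that joins the BCOR complex and also serves SCF ubiquitin ligases, fell from 177 ± 13.8 to 118 ± 7.36 TPM (-0.58, adjusted p = 0.0335). Neither passed after scaling (adjusted p = 0.0750 and 0.423).

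Asxl1 (ENSMUSG00000042548) encodes the partner of BAP1 in the Polycomb deubiquitinase, which removes ubiquitin from histone H2A, and is often mutated in myeloid disease. It had 7.27, 15.10 and 11.53 TPM in the uninduced libraries and 15.09, 7.72 and 18.68 TPM in the induced ones. The groups overlapped, and the change was 0.24 (SE 0.37, 95% interval -0.58 to 1.07, adjusted p = 0.711), or 0.62 (adjusted p = 0.351) after scaling. Of the other genes of this complex 2 of 9 tested were called on the deposited scale, both lower, again beside 10.2% of all genes called lower and 1.29% higher. Hcfc1, a transcriptional coregulator bound by BAP1, fell from 31.2 ± 5.83 to 12.2 ± 3.00 TPM (-1.29, adjusted p = 0.0127), and by 0.91 (adjusted p = 0.0400) after scaling. Mbd6, a binding partner of the complex, fell from 37.3 ± 3.83 to 19.5 ± 1.14 TPM (-0.90, adjusted p = 0.0198), and did not pass after scaling (adjusted p = 0.161). Ogt, the O-GlcNAc transferase, passed with scaling that levels the typical gene (0.82, adjusted p = 0.0162, after median-of-ratios scaling). On the deposited scale its change was 0.42 (adjusted p = 0.202), and it had 46.6, 51.1 and 37.2 TPM without induction and 63.8, 51.5 and 65.1 TPM with it. Of the 3 demethylases of histone H3 lysine 27 or their relatives none passed in limma on either scale, and 1 (Kdm6b) had an unadjusted p under 0.05 on the deposited scale, where 27.9% of all genes did.

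**Figure D4:**
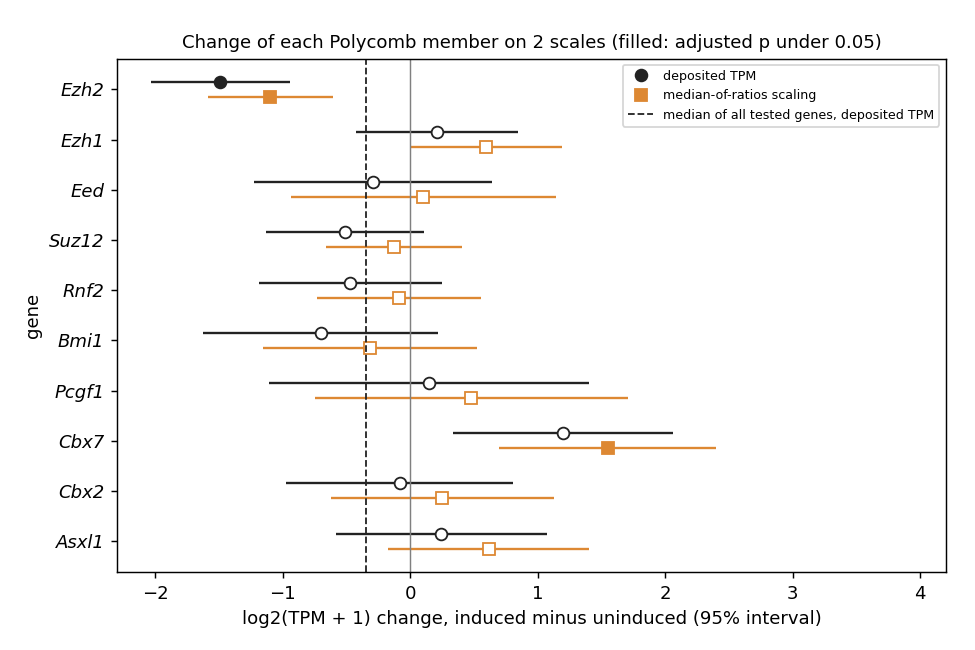
Change of each member on the log2(TPM + 1) scale with its 95% interval, induced minus uninduced, from deposited TPM and after median-of-ratios scaling. Filled symbols passed the adjusted p threshold of 0.05. Ezh2 is filled on both scales (-1.49 and -1.10) and Cbx7 on the scaled values only (1.55), and the dashed line at -0.35 is the median of all tested genes.

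Ezh2 led the members in the uninduced group and shared its level with Ezh1 in the induced group. By mean TPM the uninduced order was Ezh2, Eed, Bmi1, Suz12, Rnf2, Ezh1, Asxl1, Pcgf1, Cbx7 and Cbx2, and all 9 pairs of neighbours overlapped. In the induced group it was Eed, Ezh1, Ezh2, Suz12, Bmi1, Cbx7, Asxl1, Rnf2, Pcgf1 and Cbx2, and 7 of the 9 pairs of neighbours overlapped. The 2 that did not were Eed with Ezh1 and Rnf2 with Pcgf1.

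The labelled cell type was read from its markers. Of 6 tested stem cell genes Ly6a (which encodes Sca1), Procr and Hlf were called higher on both scales. Kit was called lower on the deposited scale and not after scaling (-0.40, adjusted p = 0.224), and Mecom was called higher after scaling alone (0.81, adjusted p = 0.0141). Slamf1, which encodes the gate marker CD150, did not pass (-0.78, adjusted p = 0.155). Of 5 lymphoid markers Il7r, Dntt, Cd79a and Cd3e were at 0 in all libraries, as were most of the 55471 gene IDs. The fifth, Ighm, did not pass and had 1.90, 2.04 and 8.86 TPM without induction against 1.25, 0 and 0 TPM with it, without overlap. Erythroid markers were called higher for 6 of 8, and their summed level was 54.6 to 60.6 TPM without induction and 402 to 467 TPM with it. Epor, the erythropoietin receptor, went the other way without passing (-1.65, adjusted p = 0.0638), at 3.42, 2.10 and 4.57 TPM against 0, 0 and 1.45 TPM. Megakaryocyte markers summed to 102 to 135 and 119 to 129 TPM, with Pf4 and Ppbp called higher on both scales and Gp9 called lower on the deposited scale but not after scaling (adjusted p = 0.0625). The other 2 tested, Itga2b (-0.46) and Vwf (-0.50 on the deposited scale), did not pass on either scale, and their groups were apart on the deposited scale and overlapped after scaling. Myeloid markers summed to 156 to 161 and 113 to 145 TPM. Of 5 tested, Prtn3 was called higher and the other 4 did not pass, with negative values on both scales (Mpo -1.10, Elane -1.15, S100a8 -0.56 and S100a9 -0.67 on the deposited one). The part of these markers in the Polycomb results was not tested.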

How the data were processed

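The authors deposited 1 table of gene TPM values with a column for each of 6 libraries, and per the file headers also a GC content in percent for each gene, which was not used in a test. The labels' protocols name a single-cell RNA kit and stranded total RNA libraries, read in pairs. Per the submitters' processing notes, the tools were bcl2fastq, HISAT2, StringTie and DESeq2 and the build was GRCm38; versions, the annotation release and strand settings are not given in the sources used here. Groups were taken from the library titles. Rows of 1 gene ID were summed (60496 rows, 55471 IDs). Columns totalled 999976 to 999993 TPM, and depth is unknown, so no counting interval is given.

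Genes averaging 1 TPM or more (13470) were fitted with limma 3.58.1 (R 4.3.3) on log2(TPM + 1), as 3 induced against 3 uninduced libraries with a variance trend and no covariates. In simulated data with 200 genes changed, 89% of changes of 2 log2 units and 26% of those of 1 log2 unit were recovered. Of 121 calls there, 6 were false. Unlike the real changes, the simulated ones were balanced in direction. A gene that did not pass may thus have changed. Ratios of 2 genes had exact permutation tests (scipy 1.17.1). Alternatives were pseudocounts of 0.1 and 5, the fit unfiltered or with a 5 TPM mean minimum, median-of-ratios, quantile and protein-coding scaling, no trend, array weights, a replicate block, and each library left out, the last also with median-of-ratios scaling (added after seeing the data). Named genes were all members, and of the wider list those past the threshold in the deposited-scale fit. The 3 protein-coding genes nearest in profile to Ezh1 and to Ezh2 were named too. Naming the marker and target genes past the threshold was planned. The text names only some of these, and also some marker, target and wider-list genes that did not pass. Ogt was named after its values were seen. The members and lists were chosen with earlier results of these data known. Positions are from GENCODE (GRCm38), which held 55144 of the IDs.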

Additional observations from a re-analysis of the deposited data

How the results depend on the processing

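The count of genes called was 1549 with deposited TPM, 752 with no expression filter, 806 with median-of-ratios scaling, 814 with quantile normalization, 945 with rescaling to protein-coding genes, 767 with no variance trend, 902 with a replicate block and 573 to 1198 with a library left out. Higher calls were 174 of 1549 with deposited TPM, 388 of 806 with median-of-ratios scaling, 374 of 814 with quantile normalization and 465 of 945 with protein-coding rescaling. With median-of-ratios scaling and a library left out, 292 to 398 genes, 0 or 1 members and 1 or 2 of the other Polycomb genes were called. Members called were 2 under each of the 3 rescalings of all 6 libraries, and 1 (Ezh2) under the other planned settings, the replicate block included. The other Polycomb genes called were 9 with deposited TPM, 5 with no filter, 4 with median-of-ratios scaling, 3 with quantile normalization, 6 with protein-coding rescaling, 4 with no trend, 5 with the replicate block and 1 to 7 with a library left out. The cause was not tested.

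Eed turned from -0.29 to 0.10 with median-of-ratios scaling, 0.11 with quantile normalization and 0.13 with protein-coding rescaling, and Cbx2 from -0.08 to 0.25, 0.24 and 0.27. Without a library, Eed ran from -0.75 to 0.10, Cbx2 from -0.33 to 0.22, Pcgf1 from -0.40 to 0.78, Asxl1 from -0.018 to 0.59, Suz12 from -0.70 to -0.30, Bmi1 from -1.13 to -0.22 and Rnf2 from -0.81 to -0.22. With median-of-ratios scaling as well, Eed ran from -0.41 to 0.47, Cbx2 from 0.00061 to 0.53, Pcgf1 from -0.07 to 1.04, Asxl1 from 0.34 to 0.92, Suz12 from -0.27 to 0.038, Bmi1 from -0.67 to 0.10 and Rnf2 from -0.35 to 0.14. With a replicate block the ratio differences were 1.70 and 1.28 (exact sign-flip p = 0.25, the smallest possible). Deviations of same-numbered libraries from their group means correlated with r of 0.021, -0.015 and 0.017. The labels do not say whether the numbers pair libraries. These correlations cannot decide it, since centring ties the deviations within each group.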

Other observations

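A list of 18 genes that Polycomb complexes are known to silence, among them Hox genes, Cdkn2a and regulators of other lineages, was read beside the members. Of these, 11 were at 0 TPM in all 6 libraries, Cdkn2a, Ebf1 and Pax5 among them, and 4 passed the expression filter. Of all 55471 gene IDs, 23013 had a mean above 0 TPM and 13470 passed the filter, so most IDs were at 0 as well. None of the 4 was called by limma on either scale, beside 11.5% and 5.98% of all tested genes, and 0 had an unadjusted p under 0.05, beside 27.9% and 21.8%. The induced minus uninduced difference was 0.25 for Hmga2, -0.29 for Hoxa9, -0.28 for Hoxa10 and -0.32 for Bmp4 on the log2 scale of deposited TPM. After median-of-ratios scaling it was 0.50, 0.11, 0.09 and -0.02 in the same order, so the sign turned for Hoxa9 and Hoxa10, and the median of the 4 went from -0.28 to 0.10. Their groups overlapped, and depth is unknown, so a level of 0 says only that the gene is listed at 0.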
